A study of Mus musculus with 25 samples.

Results

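MicroRNA levels were compared between 2 sets of mammary carcinomas from female FVB mice that carry the MMTV-Met transgene, in which the mouse mammary tumour virus promoter drives the receptor tyrosine kinase Met. The first set was the 3 tumours with a pathology of Solid Nodular Carcinoma. The second was the 3 other carcinomas of that genotype without spindle morphology, 1 Adenosquamous, 1 Scirrhous Adenocarcinoma and 1 Adenocarcinoma. These 6 tumours were chosen by their genotype and pathology labels from 25 arrays, and the seventh tumour of the genotype, which was Spindloid, was left out. The other 18 arrays held 8 tumours of genotype MMTV-Met;Trp53fl/+, 8 of genotype Trp53fl/+ (fl marks a floxed allele) and 2 pools of Wild-Type normal mammary gland, 1 from multiparous and 1 from nulliparous mice. Multiparous mice gave 5 of the compared tumours, and parity was not stated for solid nodular tumour 3. Age, and whether the tumours came from separate animals, are not given in the sources used here. Each p-value thus reflects only how arrays vary within groups, which may be technical. For the adjusted p-values this spread is taken within the groups of all 25 arrays, including tumours of the other genotypes. The transgene was present in both sets, so that the comparison is between tumour pathologies within 1 genotype. The second set holds 3 different pathologies with 1 tumour each, and no difference among those 3 could be tested.

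A miRNA is a short RNA that guides the silencing machinery to messenger RNAs through its seed, the bases near its 5′ end, and usually lowers their stability and translation. The miR-30 and let-7 families rise as epithelial cells differentiate, and both are known to restrain self-renewal in breast tumour-initiating cells. The miR-200 family maintains the epithelial state by repressing Zeb1 and Zeb2. The 2 arms of a hairpin, named -5p and -3p, are cut from 1 precursor, and neighbouring hairpins are often transcribed together.

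In the solid nodular tumours 9 miRNAs were higher and 12 were lower, and 5 of the 9 belonged to the miR-30 family and 2 to the let-7 family. The sequences below are those of the higher miRNAs found in RefSeq, with close relatives that serve as a comparison. They are printed 5′ to 3′ with the seed (bases 2 to 8) in capitals. Of 28 miRNAs named by rule or called, 18 had a RefSeq sequence, and coordinates are of GRCm38.p6. The first group is the miR-30 family. Among the sequences found, the seed of miR-30a-5p is shared by miR-30c-5p and miR-30e-5p, and that of miR-30a-3p by miR-30e-3p. No sequence was found for miR-30d-5p, so its seed was not compared.
miR-30a-5p: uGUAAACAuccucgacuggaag
miR-30c-5p: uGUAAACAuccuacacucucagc
miR-30e-5p: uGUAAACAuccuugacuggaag
miR-30a-3p: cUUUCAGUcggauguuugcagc
miR-30e-3p: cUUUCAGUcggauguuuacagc
miR-30c-2-3p: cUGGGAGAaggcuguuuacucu
The second group is let-7, in which all 9 tested members have the seed of let-7b-5p.
let-7b-5p: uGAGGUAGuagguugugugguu
let-7c-5p: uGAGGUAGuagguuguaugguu
let-7a-5p: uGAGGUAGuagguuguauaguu
let-7e-5p: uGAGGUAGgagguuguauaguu
The third group is miR-181c-5p and the pair of miR-27 relatives.
miR-181c-5p: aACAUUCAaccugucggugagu
miR-27b-3p: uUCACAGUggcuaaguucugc
miR-27a-3p: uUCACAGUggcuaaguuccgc

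Levels are given as log2 of the scanner's processed signal after each array was scaled to a common 75th percentile. The lowest possible level is the floor, 3.60, and values at the floor have no order. Of 1122 mouse miRNAs on the array, 287 were tested. A miRNA is called at a Benjamini-Hochberg adjusted p under 0.05 in limma, over all 287. This gave 21 calls (7.32% of those tested), 9 higher (3.14%) and 12 lower (4.18%). The 3 solid nodular values lay apart from the other 3 without overlap in 90 miRNAs (31.4%), 33 higher (11.5%) and 57 lower (19.9%). Every called miRNA was among these 90, and an exact two-sided permutation test gave p = 0.1 for each of them, the smallest that 3 tumours against 3 allow. The median difference was -0.11 over all tested miRNAs, of which 175 were below 0 and 102 above 0.

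The arrays differed before any comparison of groups. The solid nodular arrays had 182, 236 and 215 mouse miRNAs well above background, and the other 3 had between 262 and 274. The percentile used for scaling was 278.8 to 682.9 intensity units in the solid nodular tumours and 493.8 to 738.2 in the others, with solid nodular tumour 1 lowest of all 25 arrays on both measures. Without solid nodular tumour 1 there were 6 calls, all higher. Without solid nodular tumour 3 there were 5, also all higher, and without solid nodular tumour 2 there were 9, of which 8 were higher. Without the scirrhous tumour the count rose to 50, with 16 higher. Of the 9 higher calls, 5 (let-7b-5p, miR-30a-3p, miR-30c-2-3p, miR-30d-5p and miR-181c-5p) passed whichever of the 6 tumours was left out, while 0 of the 12 lower calls did. The part of signal strength in the lower calls was not tested.

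Both arms of the miR-30a hairpin were higher in all 3 solid nodular tumours. miR-30a-3p, whose hairpin lies on chromosome 1 (mature arm at chr1:23272315-23272336, plus strand), stood at 7.34, 6.64 and 7.26 in the solid nodular tumours. It stood at 5.17 in the adenosquamous tumour, 4.93 in the scirrhous tumour and 5.07 in the adenocarcinoma. The groups did not overlap, and the difference was 2.02 (SE 0.31, limma adjusted p = 7.834e-04), or 4.06-fold. The other arm, miR-30a-5p (chr1:23272274-23272295), measured 10.45, 10.03 and 10.46 against 8.52, 8.47 and 8.70. Its difference was 1.75 (SE 0.41, adjusted p = 0.0231). In both arms the 3 other carcinomas lay close together. The pools of normal gland stood near them, at 5.49 and 5.38 for the 3p arm and at 8.69 and 8.47 for the 5p arm.

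The rest of the miR-30 family lay on the same side. miR-30d-5p, a member from another hairpin, stood at 7.93, 7.56 and 7.86 in the solid nodular tumours and at 6.45, 6.92 and 5.95 in the adenosquamous, scirrhous and adenocarcinoma tumours, a difference of 1.34 (SE 0.22, adjusted p = 0.00144). Its groups were separate, with the scirrhous tumour nearest to the solid nodular values. miR-30e-3p stood at 5.14, 4.42 and 5.24 against 4.16, 4.12 and 3.92, a difference of 0.87 (SE 0.22, adjusted p = 0.0329). Here solid nodular tumour 2 was close to the other carcinomas. miR-30c-2-3p stood at 4.73, 4.25 and 4.44 against 3.60, 3.72 and 3.63, a difference of 0.82 (SE 0.12, adjusted p = 7.834e-04). The other carcinomas were near the floor for this arm, so part of its difference is set by the floor.

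Of the miR-30 family 8 members were tested, and all 8 differences were above 0, with 5 called and 6 without overlap. The median was 1.11, beside -0.11 for all tested miRNAs, of which 3.14% were called higher and 11.5% were separate upward. The 3 that did not pass were miR-30c-5p (1.53, SE 0.48, adjusted p = 0.0582), miR-30b-5p (0.79, SE 0.33, adjusted p = 0.104) and miR-30e-5p (0.76, SE 0.46, adjusted p = 0.27). The summed level of the family was 10.88 to 11.44 in the solid nodular tumours and 9.65 to 9.90 in the others. The family's median stayed above 0 under each of the 5 other ways of scaling that were tried.

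Some relatives in these families differ by 1 base, and positions are counted from 1 at the 5′ end. miR-30a-5p and miR-30e-5p differ by C13U, and their differences were 1.75 and 0.76. miR-30a-3p and miR-30e-3p differ by G18A, and their differences were 2.02 and 0.87. All these substitutions lie outside the seed. How far each probe also binds its nearest relative was not tested, and it bears on every comparison of such relatives here.

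**Figure D1:**
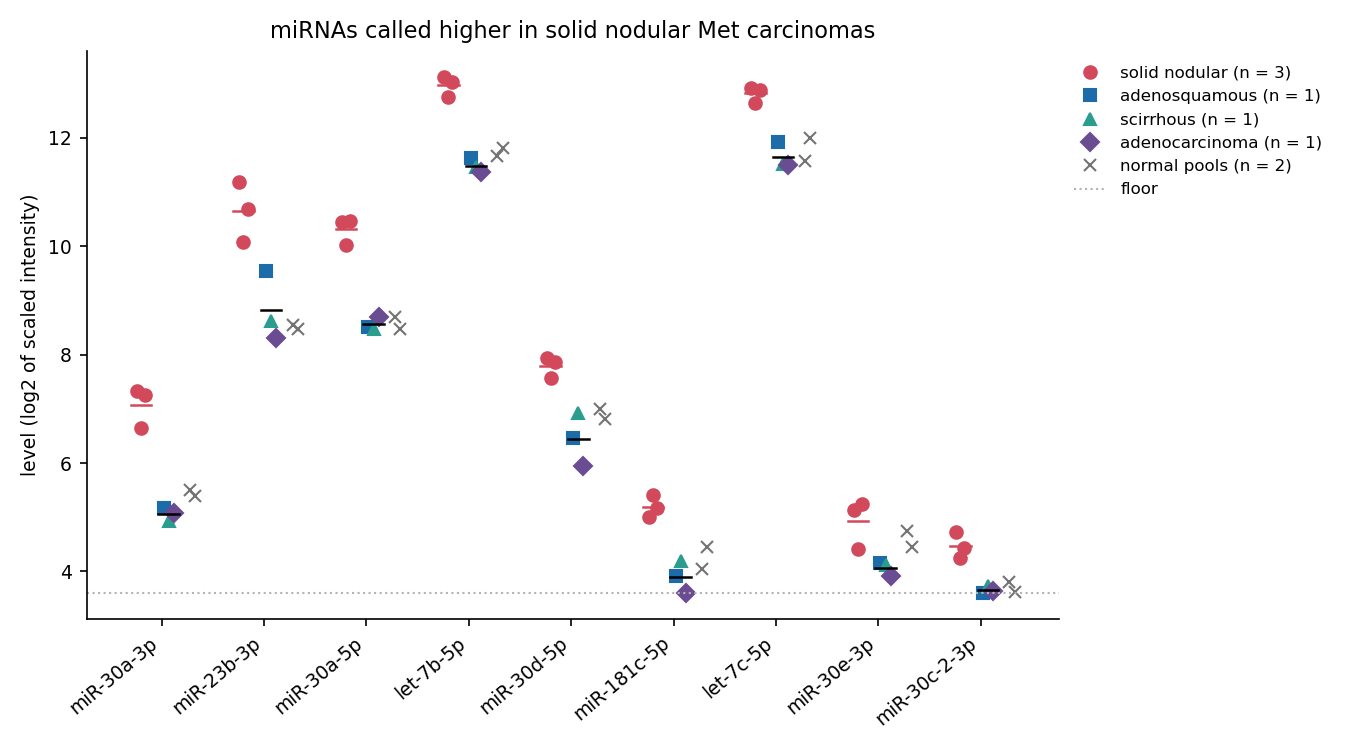
Level (log2 of scaled intensity) of the 9 miRNAs called higher, in the 3 solid nodular tumours (circles, with their mean), in the 3 other Met carcinomas (1 symbol each, with their mean) and in the 2 normal pools (crosses); the dotted line is the floor. All 3 circles lie above the other 3 tumours for each miRNA, by the widest mean difference, 2.02, for miR-30a-3p.

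Within let-7, a family that silences growth and stem cell regulators such as Hmga2 and Ras, the higher members were let-7b-5p and let-7c-5p. let-7b-5p (chr15:85707325-85707346, plus strand) stood at 13.13, 12.75 and 13.04 in the solid nodular tumours and at 11.62, 11.46 and 11.36 in the adenosquamous, scirrhous and adenocarcinoma tumours. The difference was 1.49 (SE 0.23, adjusted p = 7.834e-04), or 2.80-fold. let-7c-5p stood at 12.92, 12.64 and 12.89 against 11.92, 11.52 and 11.50, a difference of 1.17 (SE 0.28, adjusted p = 0.0232). A copy of let-7c, Mirlet7c-2 (chr15:85706616-85706637), starts 709 bases from let-7b on the same strand, and another, Mirlet7c-1, is on chromosome 16 (chr16:77599672-77599693). Both miRNAs were separate between the groups, with solid nodular tumour 2 the lowest of its group in each.

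The other 7 tested let-7 members did not pass. let-7a-5p, which differs from let-7c-5p by G19A (let-7c-5p first), gave 0.64 (SE 0.29, adjusted p = 0.12) with groups that did not overlap. The others ranged down to -0.05, for let-7i-5p, and their groups overlapped. let-7e-5p, which differs from let-7a-5p by U9G, gave -0.03 (SE 0.29). The 9 members had a median of 0.29, with 7 of 9 above 0 and 2 called. Among all 287 tested miRNAs 102 were above 0 and 3.14% were called higher. let-7b-5p and let-7c-5p differ from each other by G17A, and were the pair of members that shared a genome neighbourhood and passed. The chromosome 16 copy, Mirlet7c-1, starts 732 bases from miR-99a-5p, which was separate upward without a call (1.40, SE 0.56, adjusted p = 0.103). Which copy gave the let-7c-5p signal was not tested.

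Along the sequence printed above, the miR-27 relatives showed unlike values. miR-27b-3p (chr13:63300760-63300780), which lies in a cluster with miR-24-1, stood at 10.14, 8.93 and 9.52 in the solid nodular tumours and at 8.77, 7.21 and 7.51 in the others. It differed by 1.70 (SE 0.52, adjusted p = 0.0555) and so did not pass. miR-27a-3p, on chromosome 8 (chr8:84208727-84208747), differs from it by U19C, miR-27b-3p first. Its levels were 8.45, 9.16 and 8.04 against 8.80, 8.80 and 8.42, a difference of -0.12 (95% interval -0.70 to 0.45). Whether these 2 differences differ from each other was not tested.

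miR-23b-3p, which is reported to target Met in liver cancer cells, stood at 11.19, 10.08 and 10.68 in the solid nodular tumours and at 9.54, 8.63 and 8.30 in the others. The groups were separate and the difference was 1.83 (SE 0.53, adjusted p = 0.0458). miR-23a-3p, its relative in the other cluster, gave -0.11 (SE 0.26, adjusted p = 0.87). miR-24-3p, which is made from both clusters, gave 1.07 (SE 0.34, adjusted p = 0.0592) without overlap. Of 7 tested members of these clusters 1 was called and 4 were separate upward, with a median of 0.35. Among all tested miRNAs 3.14% were called higher and 11.5% were separate upward. The call of miR-23b-3p was lost in 11 of 25 alternatives, among them leaving out any tumour other than the adenosquamous one.

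miR-181c-5p, of a family best known in lymphocyte development, stood at 5.01, 5.41 and 5.18 in the solid nodular tumours. It stood at 3.92, 4.20 and 3.60 in the other carcinomas, the adenocarcinoma being at the floor, and the difference was 1.29 (SE 0.24, adjusted p = 0.00335). Its neighbour miR-181d-5p, 165 bases away, gave 0.92 (SE 0.37, adjusted p = 0.103) with separate groups. All 4 family members were above 0, with a median of 0.89, and 1 was called. Among all 287 tested miRNAs 102 were above 0 and 3.14% were called higher.

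A further 7 miRNAs completed the named set of upward values without passing. They were miR-100-5p (1.98, SE 0.61, adjusted p = 0.0555), miR-146b-5p (1.81, SE 0.70, adjusted p = 0.0984), miR-27b-3p, miR-195-5p (1.66, SE 0.71, adjusted p = 0.108), miR-3107-5p (1.65, SE 0.76, adjusted p = 0.131), miR-497-5p (1.59, SE 0.65, adjusted p = 0.103) and miR-30c-5p. miR-100-5p was tight in the solid nodular tumours, at 7.01, 6.90 and 7.08, and spread in the others, at 5.34, 5.96 and 3.74. miR-146b-5p, which is induced by inflammatory signalling and feeds back on it, stood at 10.41, 9.71 and 10.42 against 7.91, 8.82 and 8.37.

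The same levels were set beside the other 19 arrays, 17 tumours and 2 normal pools. For let-7b-5p, let-7c-5p, miR-30a-3p, miR-30a-5p, miR-30d-5p, miR-30c-2-3p, miR-181c-5p, miR-30c-5p and miR-146b-5p, all 19 lay below the lowest solid nodular tumour. For miR-23b-3p, miR-27b-3p and miR-100-5p 18 of 19 did, and for miR-30e-3p and miR-497-5p 17 did. miR-195-5p had 16 and miR-3107-5p 10 of 19 below. Of the lower calls, miR-328-5p and miR-3072-5p had all 19 arrays above the highest solid nodular tumour. miR-3960, miR-3102-5p, miR-1949, miR-211-3p and miR-5126 had 18 of 19, miR-3081-5p 17 and miR-721 14. miR-5121 had 11, miR-669f-3p 8 and miR-467a-3p 4 of 19. miR-30a-5p had a median of 6.66 and a highest value of 8.69 over those arrays, against a lowest solid nodular value of 10.03. The Spindloid Met tumour stood at 6.58 for miR-30a-5p and at 11.18 for let-7b-5p. These placements describe the arrays and carry no test.

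The 12 lower calls included several with little signal in the solid nodular tumours, and 9 of the 12 did not pass with slide as a block. The largest difference was that of miR-467a-3p, which stood at 3.97, 3.60 and 3.96 in the solid nodular tumours and at 6.48 in the adenosquamous, 4.60 in the scirrhous and 9.49 in the adenocarcinoma. The difference was -3.01 (SE 0.79, adjusted p = 0.0338), and the adenocarcinoma was far above the rest. Without the adenocarcinoma it was -1.70. miR-669f-3p had the same shape, at 3.62, 3.60 and 3.67 against 5.87, 4.03 and 9.12, with a difference of -2.71 (SE 0.77, adjusted p = 0.0433) and of -1.32 without the adenocarcinoma.

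Both belong by name to the miR-297, miR-466, miR-467 and miR-669 group, of which many mouse members are encoded within Sfmbt2. The list was matched by name, without a check of genome position, and was chosen after its values were seen. Of its 12 tested members 2 were called lower and 6 were separate downward, beside 4.18% and 19.9% of all tested miRNAs. The median was -0.90. All 12 differences of the list were below 0 as reported, beside 175 of all 287 tested. But with normexp 2 of the 12 were above 0 and the median was -0.07. With the percentile over all probes the median was -0.30, and with quantile normalisation it was -0.27. With the percentile over the 6 arrays and in the authors' table all 12 stayed below 0, with medians of -0.97 and -0.61. miR-467b-5p and miR-467e-5p, which did not pass, were highest in the adenocarcinoma too, at 8.12 and 7.95. How far the probes of this group bind each other's targets was not tested.

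miR-3960 and miR-5126 were well above background in every one of the 6 tumours. miR-3960 stood at 8.50, 8.77 and 8.32 in the solid nodular tumours and at 10.52, 10.32 and 10.58 in the others, a difference of -1.94 (SE 0.50, adjusted p = 0.0329). miR-5126, named because it was called though outside the 10 largest, stood at 9.75, 9.90 and 9.76 against 11.55, 10.93 and 12.33, a difference of -1.80 (SE 0.51, adjusted p = 0.0433). In both, the solid nodular tumours lay close together and apart from the rest. The mature sequence of miR-5126 is shown because it consists of G and C alone.
miR-5126: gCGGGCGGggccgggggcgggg

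A further 4 lower calls were also well above background in all 6 tumours. miR-1949 gave -2.30 (SE 0.64), miR-211-3p, the minor arm of a hairpin within the melanocyte gene Trpm1, gave -1.91 (SE 0.54), miR-3102-5p gave -1.89 (SE 0.52) and miR-3072-5p gave -1.60 (SE 0.40). Their adjusted p-values were 0.0433, 0.0433, 0.0433 and 0.0296. The normal pools stood at 7.13 and 5.84 for miR-211-3p, the lower of them among the solid nodular values of 5.88, 6.17 and 5.70.

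The remaining lower calls had signal near the floor in the solid nodular tumours. miR-328-5p was not well above background in any of them and stood at 5.03, 6.19 and 5.15 in the others. As scaled here, it was at least 3.13-fold lower (measured difference -1.86, limma adjusted p = 0.0245). This bound was taken against the lowest signal among probes well above background on each array, and holds for that scaling only. Under the 5 other scalings the difference ranged from -2.04 in the authors' table to -0.41 with normexp. miR-5121 (-1.85, SE 0.42, adjusted p = 0.0222), miR-3081-5p (-1.96, SE 0.56, adjusted p = 0.0433) and miR-721 (-1.93, SE 0.54, adjusted p = 0.0433) were the others. With the floor set 2 times higher, 0 of the 12 lower calls passed. miR-721 shares its seed, AGUGCAA, with miR-130a-3p, miR-130b-3p and miR-301a-3p. All 4 were below 0, as were 175 of all 287 tested miRNAs. With normexp the difference of miR-301a-3p was 0.11, and the others stayed below 0.

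**Figure D2:**
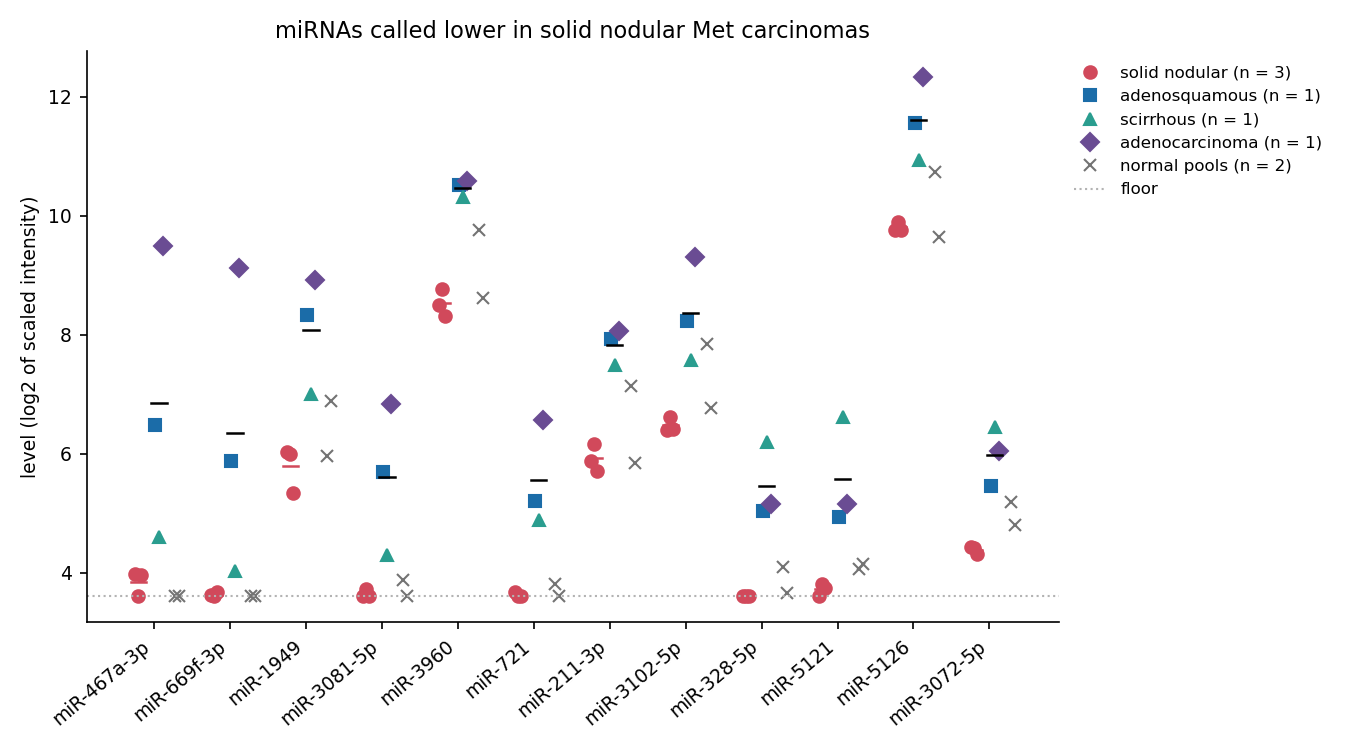
Level (log2 of scaled intensity) of the 12 miRNAs called lower, with the same symbols as in the plot of the higher ones; the dotted line is the floor of 3.60. The solid nodular tumours lie below the other 3 for each miRNA, and for miR-467a-3p and miR-669f-3p the adenocarcinoma, at 9.49 and 9.12, is far above the others.

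Markers of epithelial state lay above 0 without a call. All 7 tested miR-200 family members were above 0, with a median of 0.88 and 4 separate upward. Beside them, 102 of all 287 tested miRNAs were above 0 and 11.5% were separate upward. miR-200c-3p stood at 11.11, 10.04 and 11.05 against 9.37, 9.18 and 9.50, a difference of 1.39 (SE 1.11, 95% interval -0.97 to 3.75, adjusted p = 0.42). The SE comes from the spread within all groups of the model, which includes tumours of the other genotypes. The summed level of the family was 11.37 to 12.28 in the solid nodular tumours, 10.70 to 11.09 in the other carcinomas and 9.17 to 9.29 in the normal pools, so epithelial markers were present in all 6 tumours.

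miR-205-5p, a miRNA of basal and squamous epithelium, was separate downward without a call. It stood at 6.58, 6.18 and 6.24 in the solid nodular tumours, at 9.22 in the adenosquamous tumour, at 8.20 in the scirrhous tumour and at 8.46 in the adenocarcinoma. The difference was -2.29 (SE 0.95, 95% interval -4.30 to -0.28, adjusted p = 0.103). miR-203-3p, the other squamous marker tested, was highest in the adenosquamous tumour at 5.40 and overlapped (0.24, SE 0.43). The adenosquamous label was thus matched by the highest summed squamous signal, 9.37, beside 8.39 and 8.61 in the other carcinomas and 6.97 to 7.10 in the solid nodular tumours.

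Among blood cell markers, the summed leukocyte signal was highest in the scirrhous tumour, at 11.08. This sum was 9.03 and 9.81 in the other carcinomas of its set and 8.31 to 9.56 in the solid nodular tumours. The summed erythroid signal of the scirrhous tumour, 8.14, was the lowest of the 6. miR-150-5p, of mature lymphocytes, was at 8.01 in the scirrhous tumour and at the floor in the other 5. miR-142-3p, of all blood cells, stood at 3.88, 5.04 and 6.04 in the solid nodular tumours, at 6.44 in the adenosquamous and at 8.90 in the scirrhous tumour, with the adenocarcinoma just below solid nodular tumour 3. The 8 tested leukocyte members were all below 0, with a median of -1.22, 0 called and 1 separate downward. Beside them, 175 of all 287 tested miRNAs were below 0 and 19.9% were separate downward. In such bulk tissue, fewer cells of a type and less RNA per cell cannot be told apart.

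miR-155-5p, which is induced in activated lymphocytes and macrophages, was the leukocyte member without overlap. It stood at 3.60, 3.60 and 3.73 against 4.64, 5.84 and 6.28, a difference of -1.94 (SE 0.59, adjusted p = 0.0543). miR-21-5p, abundant in many tumours and their stroma, stood at 9.20, 10.78 and 11.12 against 11.66, 11.97 and 11.64, a difference of -1.39 (SE 0.54, adjusted p = 0.0978). Both were separate downward and neither passed. The 8 members of the tumour-associated list had a median of -0.18, and its sign turned under another scaling.

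The stromal and mesenchymal list was divided. Of 11 tested members 8 were below 0, with a median of -0.92 and 0 called, beside 175 of all 287 tested miRNAs below 0. Upward, 2 were separate, beside 11.5% of all tested miRNAs. The 2 were miR-497-5p and miR-195-5p, from a hairpin cluster of their own. miR-143-3p, of smooth muscle and fibroblasts, stood at 4.93, 5.03 and 4.99 in the solid nodular tumours, and at 6.79 and 7.05 in the adenosquamous and scirrhous tumours, while the adenocarcinoma lay among the solid nodular values. The summed stromal signal of the scirrhous tumour was 11.23, and that of the adenocarcinoma was 9.02, below the solid nodular range of 10.18 to 10.61. By this sum the other carcinomas lay on both sides of the solid nodular tumours, but its members were unlike. For miR-195-5p the adenocarcinoma stood at 5.47, against 8.41 to 8.60 in the solid nodular tumours. For miR-199a-3p it stood at 6.96, within their range of 6.24 to 8.12.

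Skeletal muscle markers were at the floor in all 3 solid nodular tumours and in the adenocarcinoma. In the adenosquamous tumour miR-133b-3p stood at 8.78 and miR-1a-3p at 7.76, and in the scirrhous tumour they stood at 4.57 and 4.31. The normal pools held 12.43 and 12.84 of miR-133b-3p. Muscle signal thus moved with the second set, through the adenosquamous tumour in particular. Of the 6 tested muscle members 0 were called. Without the adenosquamous tumour 12 miRNAs were called higher and 10 lower, and 13 of these calls were among the 21 reported. All 9 higher miRNAs kept a difference above 0, which groups without overlap must do. The part of muscle in the calls was not tested. miR-451, of red blood cells, stood at 10.02, 10.32 and 11.67 against 10.33, 7.94 and 8.47 (1.76, SE 0.94, adjusted p = 0.203). Of 4 tested adipose members, with a median of 0.46 and 0 called, miR-365-3p (1.01, SE 0.32, adjusted p = 0.0571) and miR-193b-3p (1.06, SE 0.74, adjusted p = 0.345) were separate upward. The other members, miR-378-3p (-0.63, SE 0.54) and miR-378-5p (-0.09, SE 0.18), were below 0 and overlapped. Among all 287 tested miRNAs 11.5% were separate upward and 175 were below 0. The summed endothelial signal was 7.57 to 8.32 against 7.83 to 10.16.

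**Figure D3:**
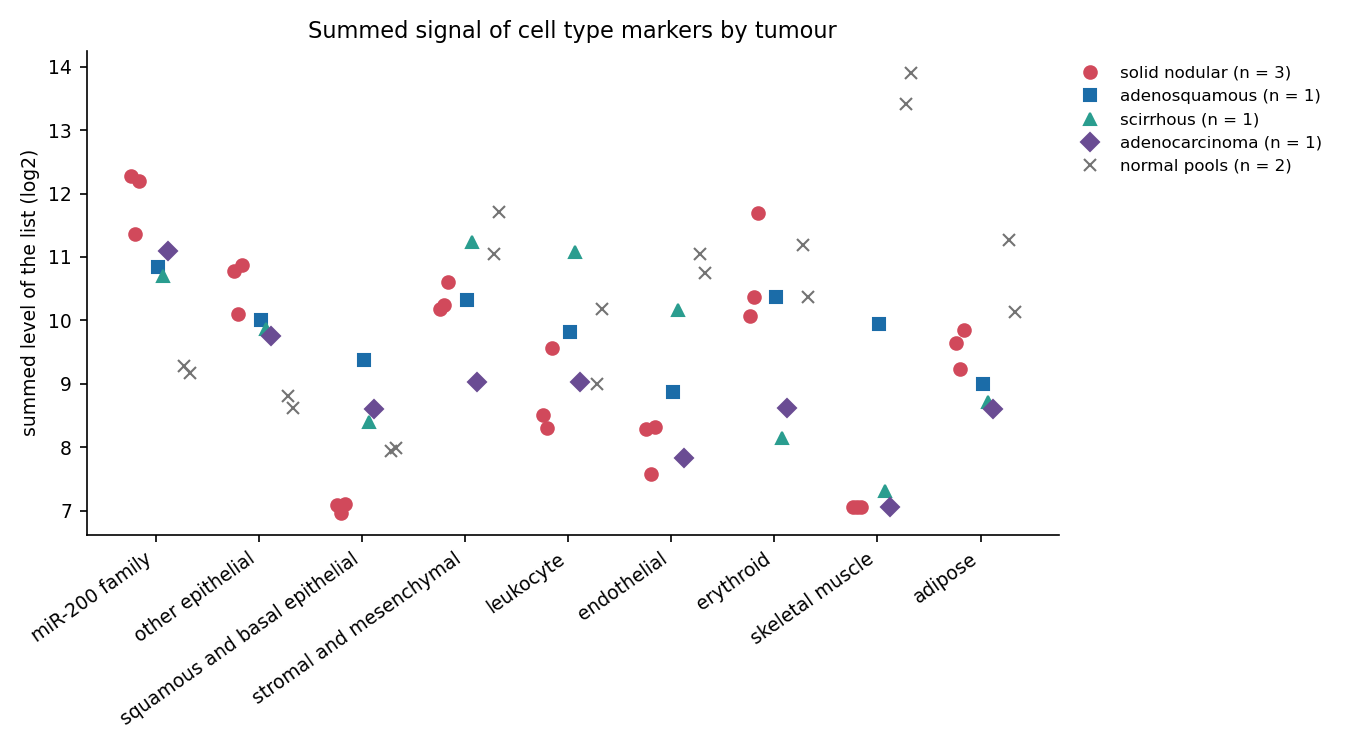
Log2 of the summed signal of each list of cell type markers in the 3 solid nodular tumours (circles), the 3 other Met carcinomas (1 symbol each) and the 2 normal pools (crosses). The squamous sum of the solid nodular tumours, 6.97 to 7.10, lies below the other carcinomas, and the scirrhous tumour has the highest stromal and leukocyte sums of the 6, 11.23 and 11.08.

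Of the other lists, the miR-17 cluster and its paralogs, which Myc induces in proliferating cells, had 11 of 11 tested members below 0, with a median of -0.67 and 0 called. All 11 overlapped between the sets, and 175 of all 287 tested miRNAs were below 0. miR-18a-5p was at 4.67, 4.86 and 4.21 against 6.91, 4.50 and 7.30, with the scirrhous tumour among the solid nodular ones. This median turned to 0.02 when the percentile was taken over all probes. The p53-induced, Dlk1-Dio3, miR-29, miR-15 and miR-16, and miR-99, miR-100 and miR-125 lists had medians between -0.21 and 0.09 and 0 calls.

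Some list medians kept their sign under the 5 other scalings but moved in size. They ranged from 0.75 to 1.59 for miR-200, from 0.16 to 0.99 for let-7, from 0.53 to 1.47 for miR-181 and from 0.24 to 0.92 for the miR-23, miR-24 and miR-27 clusters. The leukocyte median ranged from -1.27 to -0.46 and the stromal median from -0.99 to -0.18.

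Met-targeting miRNAs had 1 call of 7 tested, miR-23b-3p, and a median of -0.14 whose sign turned under another scaling. Among all tested miRNAs 7.32% were called. miR-34a-5p, a p53 target that represses Met, gave 0.64 (SE 0.52, adjusted p = 0.43) with overlap. miR-9-3p, in the neural list, stood at 3.60, 6.90 and 5.50 in the solid nodular tumours and at 3.85, 3.60 and 3.60 in the others, a difference of 1.65 (SE 0.59, adjusted p = 0.0834). Solid nodular tumours 2 and 3 were thus high and tumour 1 was at the floor.

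**Figure D4:**
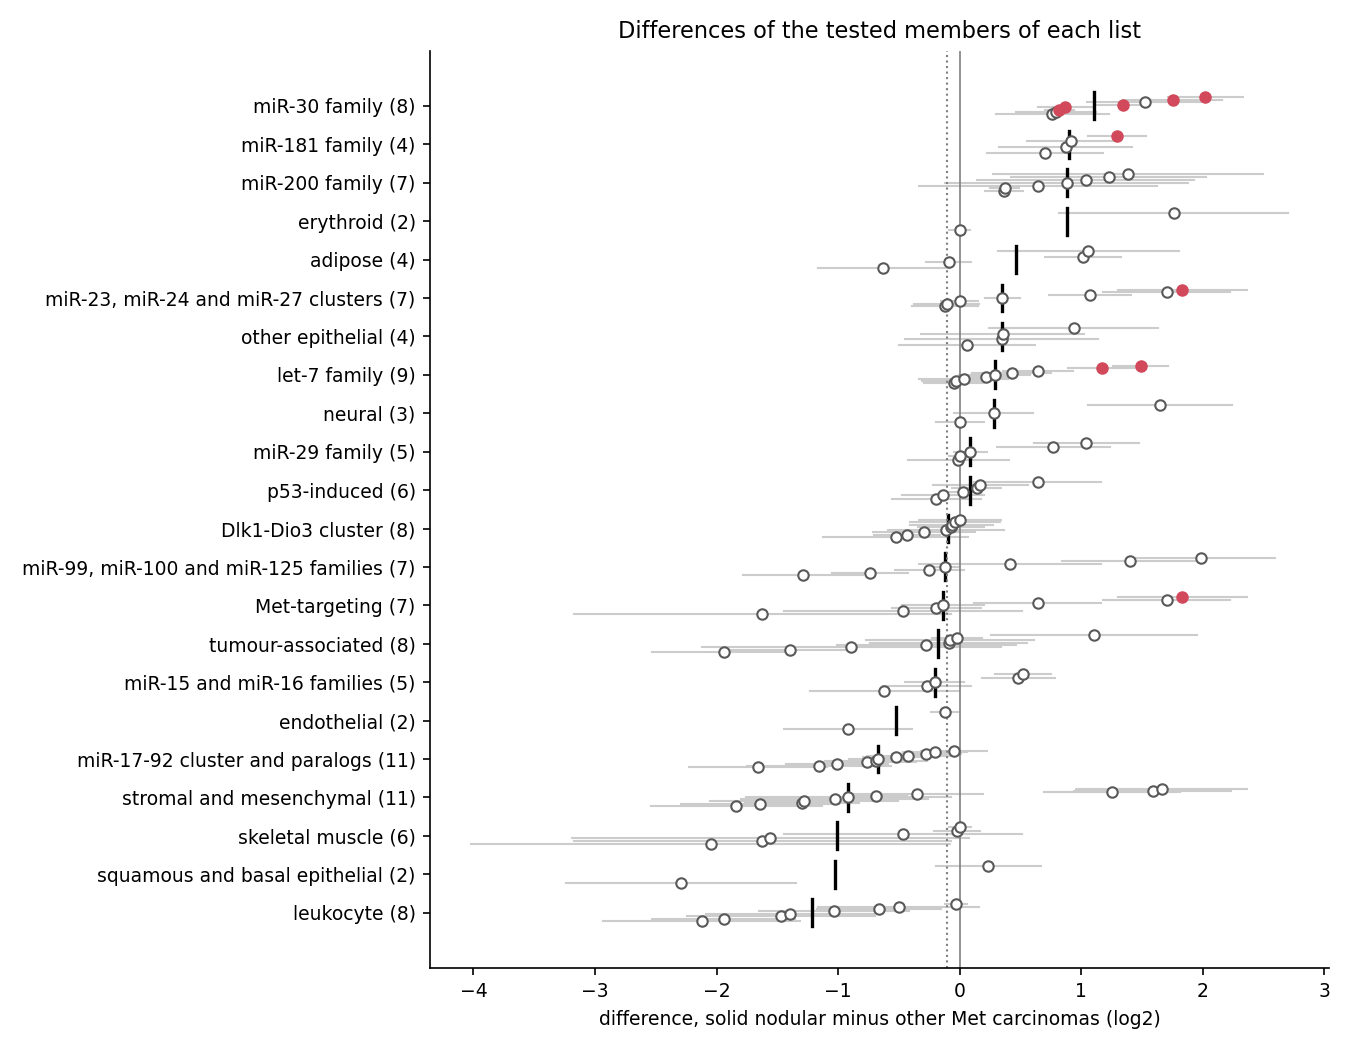
Difference between solid nodular and other Met carcinomas (log2, with SE) of each tested member of each list; filled points passed adjusted p under 0.05, thick bars are list medians and the dotted line is the median of all tested miRNAs, -0.11. The miR-30 family has 5 filled points of 8 and the highest median, 1.11.

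Over the 287 tested miRNAs, the correlation of levels was 0.95 to 0.97 between solid nodular tumours, 0.83 to 0.91 between the other carcinomas and 0.81 to 0.91 across the sets. The points share probes and array signal, and these values are a description. The median SD was 0.23 in the solid nodular tumours and 0.43 in the others, and the SD was smaller in the solid nodular tumours for 198 miRNAs (69.0%). Over the 165 miRNAs well above background on all 6 arrays, which the floor touches least, the median SDs were 0.38 and 0.47 and the share was 63.6%. The correlations over these 165 were 0.92 to 0.96 between solid nodular tumours and 0.85 to 0.95 between the other carcinomas, so these ranges overlapped. Across the sets they were 0.79 to 0.92.

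Slide and scan day were only partly shared by the sets. Slides 1 and 2 held solid nodular tumours of the 6 and slides 3 and 5 other carcinomas. Scan day 1 held solid nodular tumour 1 alone of the 6, so that this tumour, which had the weakest array, had no counterpart within its slide or day. Solid nodular tumour 3 and the scirrhous tumour shared slide 4, on which all 9 higher calls were above 0 (0.71 to 2.33) and all 12 lower calls below 0 (-2.87 to -0.36). On scan day 2, tumour 2 less the adenosquamous tumour gave 0.26 to 1.51 for the higher calls and -2.89 to -1.05 for the lower. On scan day 3, tumour 3 less the mean of the scirrhous tumour and the adenocarcinoma gave 0.76 to 2.26 and -3.08 to -1.87. Every called miRNA was without overlap between the sets, so the signs of these differences were fixed in advance. Only their sizes describe the slide and the days. With slide as a block 15 miRNAs were called, 12 higher, and with scan date as a block 15, 10 higher. The slide block ended 9 of the 12 lower calls, those other than miR-328-5p, miR-5121 and miR-3960, with adjusted p between 0.0649 and 0.114, and 0 of the 9 higher calls. The scan date block ended 7 of these 9, those other than miR-211-3p and miR-3072-5p (0.0574 to 0.0877), and the higher call of miR-23b-3p (0.0592).

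**Figure D5:**
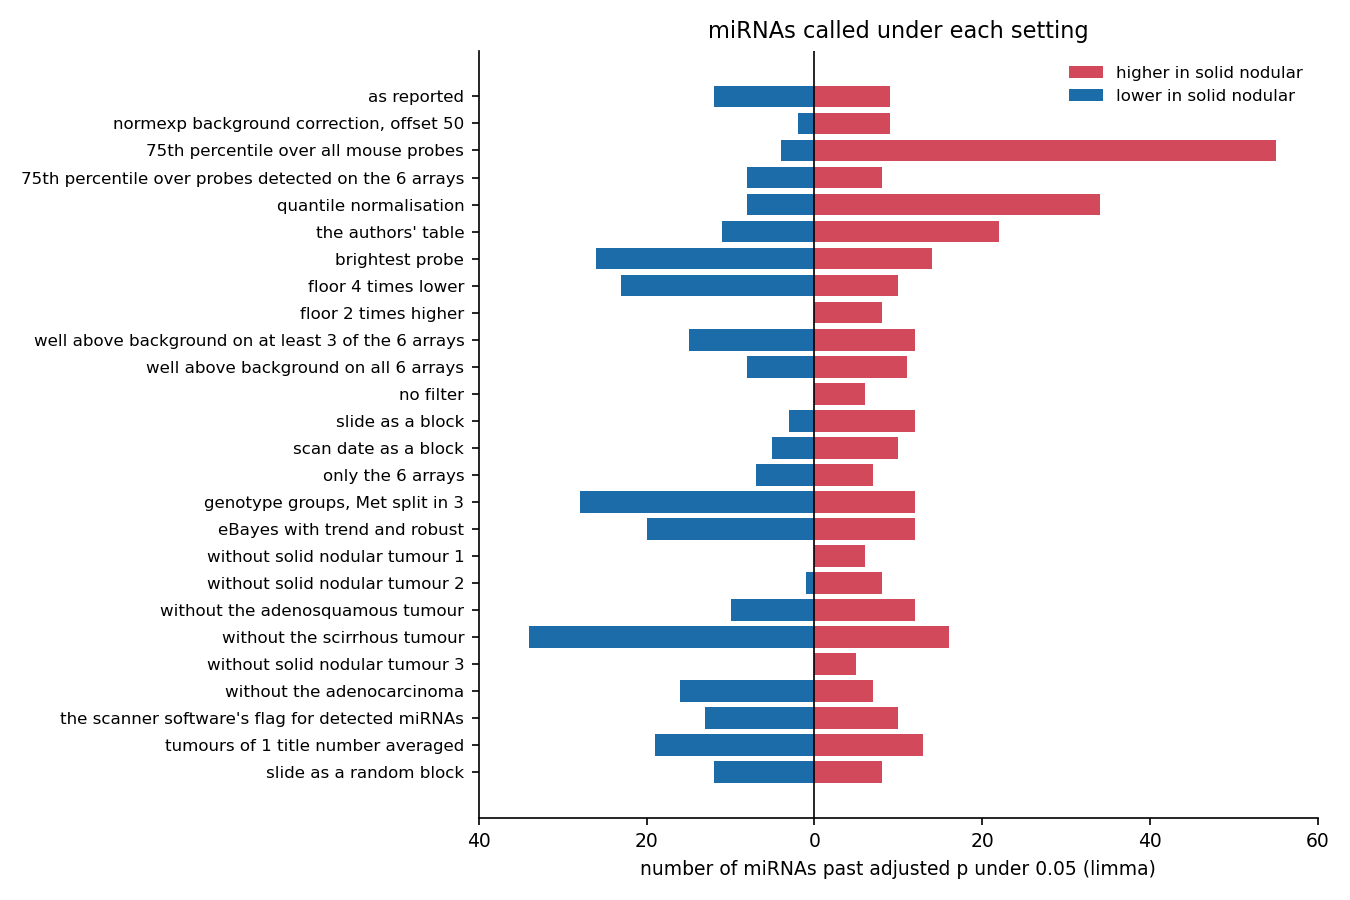
Number of miRNAs past adjusted p under 0.05 (limma), higher to the right and lower to the left of 0, as reported (21) and under each alternative setting. The count of lower calls falls to 0 with a higher floor, with no filter and without solid nodular tumour 1 or 3, while at least 5 higher calls remain under each setting.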

How the data were processed

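Total RNA of snap-frozen tissue carried Cy3 label, per the labels' protocols, on single-channel Agilent miRNA arrays. Per the file headers, the deposited spot intensity values came from Feature Extraction 10.7.3.1 (Agilent). The authors also deposited log2 values, for which the submitters' processing notes name RMA; their centring is unknown (column medians 1.72 to 1.91), and they served as an alternative. The deposited processed signal, without outlier spots, was averaged by probe, divided by each array's 75th percentile over 221 probes well above background on all 25 arrays, floored at 12.1 intensity units, and averaged by miRNA as log2. A probe counted as well above background with at least 50% of its spots so marked. Tested miRNAs were so on at least 7 tumour arrays or both normal arrays. limma 3.58.1 (R 4.3.3) fitted all 25 arrays in 11 groups of genotype by pathology, with 14 residual degrees of freedom; the spread is shared with groups outside the comparison. Named were the 10 largest calls in each direction and, where fewer passed, up to 10 of the largest without overlap; miRNAs outside the rule are said to be so. The members and lists were chosen with earlier results of these data known. Normexp used median signals. The fit was tested on simulated data. The number of arrays limits the precision. Alternatives were background correction, scaling, floor, filter, blocks, model and left-out tumours.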

Additional observations from a re-analysis of the deposited data

Results flagged for a closer look

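Probes for 57 viral miRNAs, which no comparison used, were read on the same arrays, and 6 of these miRNAs were well above background on at least 1 of the 6 tumours. For 3 of them all 3 tumours of a set lay above both normal pools. mcmv-miR-M23-1-5p had a mean level of 4.68 in the solid nodular tumours and 4.59 in the other Met carcinomas, with 4.11 and 4.09 in the normal pools. mghv-miR-M1-2-3p had means of 4.53 and 4.38, with 4.01 and 3.62 in the normal pools. mcmv-miR-m88-1 had a mean of 4.26 in the other Met carcinomas, with 3.72 and 3.60 in the normal pools. All 3 were also well above background in both normal pools, and the source of the signal was not tested.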

How the results depend on the processing

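The count of 21 calls moved by over 1.5 times under several settings, and the cause was not tested. It was 11 (9 higher) with normexp, 59 (55 higher) with the percentile over all mouse probes, 42 (34 higher) with quantile normalisation and 33 (22 higher) in the authors' table. It was 40 (14 higher) with the brightest probe, 33 (10 higher) with a floor 4 times lower and 8 (8 higher) with a floor 2 times higher. It was 6 (6 higher) with no filter, 40 (12 higher) with genotype groups and 32 (12 higher) with a trended, robust variance. Averaging tumours that share a title number, chosen after seeing the data, gave 32 (13 higher). Leaving out 1 tumour gave 5 to 50; solid nodular tumours 1, 2 and 3 and the scirrhous tumour each moved it by over 1.5 times, to 6, 9, 5 and 50. It stayed within 1.5 times when slide or scan date was a block (15 each), the 6 arrays alone (14), a percentile over the 6 arrays (16), a random slide block (20) or the scanner software's detection flag (23 of 330). let-7b-5p and miR-30a-3p passed in all 25 alternatives, and no named miRNA changed sign in a fitted one. The median over all miRNAs shifted from -0.11 to 0.15 with normexp. Several of the lower calls lie near the floor, and others were well above background in all 6 tumours. The part of signal over background in these calls was not tested.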
